A study of Mus musculus with 6 samples.

Results

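The nuclear genes for 5 subunits of cytochrome oxidase each exist as a pair in the mouse, a ubiquitous form and a form that is largely restricted to certain tissues. The 10 genes of these pairs (Cox4i1 and Cox4i2, Cox6a1 and Cox6a2, Cox6b1 and Cox6b2, Cox7a2 and Cox7a1, Cox8a and Cox8b, with the ubiquitous form first) were followed in embryonic hearts labelled as carrying a cardiomyocyte deletion of Mrps5, and in controls. They were taken by gene symbol from the 26191 genes of the table, and were chosen with earlier results of this same mutant and control comparison known. Their values in it are therefore given as a description, and the counts of members past a threshold only beside the same share of all genes, as no independent test. All 10 passed the filter on low values that 13260 genes passed.

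The control group was Mrps5 fl/fl and the mutant group Mrps5 fl/fl; cTNT-Cre, with 3 libraries each, made from mouse hearts at embryonic day 12. Per the study's main text, each library was made from a pool of embryonic hearts, and the floxed alleles were carried by both groups. Cre was driven by the promoter of the cardiac troponin T gene, Tnnt2, so the deletion is made in cardiomyocytes while every other cell of the heart keeps Mrps5. A supplementary legend of the study instead names the sequenced mutant hearts Mrps5 fl/+ with cTnT-Cre, at odds with its main text and the labels. Per the labels, expression was measured by RNA-seq after removal of ribosomal RNA. It is given as FPKM, fragments scaled by the length of the transcript and by the size of the library, summed over the transcripts of a gene.

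Cytochrome oxidase, complex IV of the respiratory chain, passes electrons to oxygen and pumps protons across the inner mitochondrial membrane. Its catalytic core is encoded by mitochondrial DNA and translated by the mitochondrial ribosome, of which the MRPS5 protein is a component. The nuclear-encoded subunits surround that core and bear on its assembly, stability and regulation. In striated muscle the forms Cox6a2, Cox7a1 and Cox8b take the place of Cox6a1, Cox7a2 and Cox8a as the muscle matures, whereas Cox4i2 is best known from lung and from cells at low oxygen, and Cox6b2 from testis. The name "heart form" therefore applies to 3 of the 5 pairs, and the less widespread member of each pair is called the tissue form here.

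In GENCODE M21 (build GRCm38), 5 of the 10 genes lie on chromosome 7. The most abundant Cox6a2 transcript spans chr7:128205435-128206387 on the minus strand in 3 exons, that of Cox7a1 chr7:30184144-30186030 on the plus strand in 4 exons, and that of Cox8b chr7:140898945-140900446 on the minus strand in 2 exons. Aligned over their coding sequences, the forms were identical at 62.4% of columns for Cox4, 56.3% for Cox6a, 61.3% for Cox6b, 59.0% for Cox7a and 52.7% for Cox8. Over the full transcripts, the longest run of bases that any pair shared was 14. Coding sequences of the 3 pairs with a muscle form, on which the results turn, are shown 5′ to 3′ from the start codon with capitals at bases that differ from the partner or have no partner base in the alignment. They come from the GENCODE M21 transcripts and are complete except for Cox6a1, of which the first 300 of 339 bases are given.
Cox6a2: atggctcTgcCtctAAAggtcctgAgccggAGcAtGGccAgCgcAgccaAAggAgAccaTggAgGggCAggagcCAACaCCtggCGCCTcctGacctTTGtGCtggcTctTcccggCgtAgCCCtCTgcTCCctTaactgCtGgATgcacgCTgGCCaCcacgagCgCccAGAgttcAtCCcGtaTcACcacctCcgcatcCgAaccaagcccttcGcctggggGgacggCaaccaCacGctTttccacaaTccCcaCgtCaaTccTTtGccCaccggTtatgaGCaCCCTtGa
Cox6a1: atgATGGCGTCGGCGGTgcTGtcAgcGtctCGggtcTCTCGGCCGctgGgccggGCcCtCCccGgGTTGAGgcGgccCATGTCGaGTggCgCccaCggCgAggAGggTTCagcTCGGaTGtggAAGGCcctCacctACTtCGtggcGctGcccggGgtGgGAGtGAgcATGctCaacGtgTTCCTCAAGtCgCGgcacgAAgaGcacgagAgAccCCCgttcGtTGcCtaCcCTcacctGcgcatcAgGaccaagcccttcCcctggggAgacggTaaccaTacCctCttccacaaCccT
Cox7a1: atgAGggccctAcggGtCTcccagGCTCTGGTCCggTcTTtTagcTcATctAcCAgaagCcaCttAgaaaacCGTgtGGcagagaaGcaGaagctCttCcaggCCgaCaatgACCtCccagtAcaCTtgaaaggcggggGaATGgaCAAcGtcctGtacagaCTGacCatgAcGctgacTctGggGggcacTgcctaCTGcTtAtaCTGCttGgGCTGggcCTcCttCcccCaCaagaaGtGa
Cox7a2: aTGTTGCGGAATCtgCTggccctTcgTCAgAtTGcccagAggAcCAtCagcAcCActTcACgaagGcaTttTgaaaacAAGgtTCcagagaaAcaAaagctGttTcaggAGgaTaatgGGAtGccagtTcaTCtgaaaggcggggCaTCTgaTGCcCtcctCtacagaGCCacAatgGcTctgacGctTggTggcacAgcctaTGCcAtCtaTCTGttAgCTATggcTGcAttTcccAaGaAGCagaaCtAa
Cox8b: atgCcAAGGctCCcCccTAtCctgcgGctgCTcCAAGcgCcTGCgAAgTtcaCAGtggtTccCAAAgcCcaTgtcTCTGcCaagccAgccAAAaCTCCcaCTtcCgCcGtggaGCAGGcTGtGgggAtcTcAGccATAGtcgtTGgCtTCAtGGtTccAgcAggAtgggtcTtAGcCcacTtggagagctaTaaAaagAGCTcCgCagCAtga
Cox8a: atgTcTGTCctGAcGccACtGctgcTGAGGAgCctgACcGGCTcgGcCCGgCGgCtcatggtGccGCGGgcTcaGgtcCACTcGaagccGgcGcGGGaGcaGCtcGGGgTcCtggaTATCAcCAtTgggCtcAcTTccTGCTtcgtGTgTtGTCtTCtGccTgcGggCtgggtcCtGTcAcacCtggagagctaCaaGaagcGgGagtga
Of the 10 main transcripts, only that of Cox6a1 shared words of 50 bases with another gene: 12.3% of its words also occur in the processed pseudogene AC148174.2, so reads of Cox6a1 and of that pseudogene may not be told apart there. The exons of Cox6a2 overlap those of Itgad on the opposite strand by 70 bases, and Itgad was listed at no more than 0.0134 FPKM in any library. Cox4i1 likewise overlaps Emc8 on the opposite strand by 154 bases, with Emc8 between 5.89 and 7.43 FPKM.

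Mrps5 itself was measured first, as a check of the labels. It stood at 9.65, 11.4 and 10.4 FPKM in control replicates 1 to 3 and at 5.28, 7.41 and 10.4 FPKM in mutant replicates 1 to 3. The library labelled mutant replicate 3 therefore held Mrps5 at the control level, and the groups overlapped. This goes against its label, and the reason, an error of the label or of the genotype or another, was not tested. Some other measures of this library lay on the side of the other mutants, below every control: Tnnt2 at 683 FPKM against 948 to 1044, the summed cardiomyocyte markers at 12749 against 13223 to 15864, mt-Co2 at 4181 against 6179 to 7989.6, and Cox7a1 at 62.0 against 82.8 to 86.0 FPKM. Others did not. Cox6a2 at 82.0 and Cox7a2 at 215 FPKM lay within the control range. Ndufa4 at 222 FPKM against 176 to 199.7, and Higd1a at 36.4 against 22.4 to 30.3, lay above every control. The Mrps5 values cover the whole gene, so they include any transcript that is still made outside the deleted exons and in cells without Cre. The log2 difference of Mrps5 over all 6 libraries was -0.44 (SE 0.19, adjusted p = 0.338 by limma), and it was -0.66 (SE 0.14) without that library. The log2 differences of the isoform genes are plotted with and without it, and are given both ways where they differ by more than their SE or where its position decides an overlap.

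In control hearts the ubiquitous form was the more abundant in every pair and in every library. Cox4i1 was highest at 435 ± 37.7 FPKM (SD, n = 3), followed by Cox6b1 at 401 ± 23.2, Cox8a at 275 ± 17.9, Cox6a1 at 234 ± 16.4 and Cox7a2 at 223 ± 21.1. The tissue forms followed with Cox7a1 at 84.0 ± 1.77, Cox6a2 at 80.3 ± 9.51, Cox6b2 between 9.10 and 11.7, Cox8b at 9.57 ± 1.06 and Cox4i2 at 3.29 ± 1.39 FPKM. Neighbours in this order whose control ranges overlapped were Cox4i1 and Cox6b1, Cox6a1 and Cox7a2, Cox7a1 and Cox6a2, and Cox6b2 and Cox8b. The 2 muscle forms Cox7a1 and Cox6a2 thus stood at about the same level per length at this stage, while the muscle form Cox8b was far lower.

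**Figure D1:**
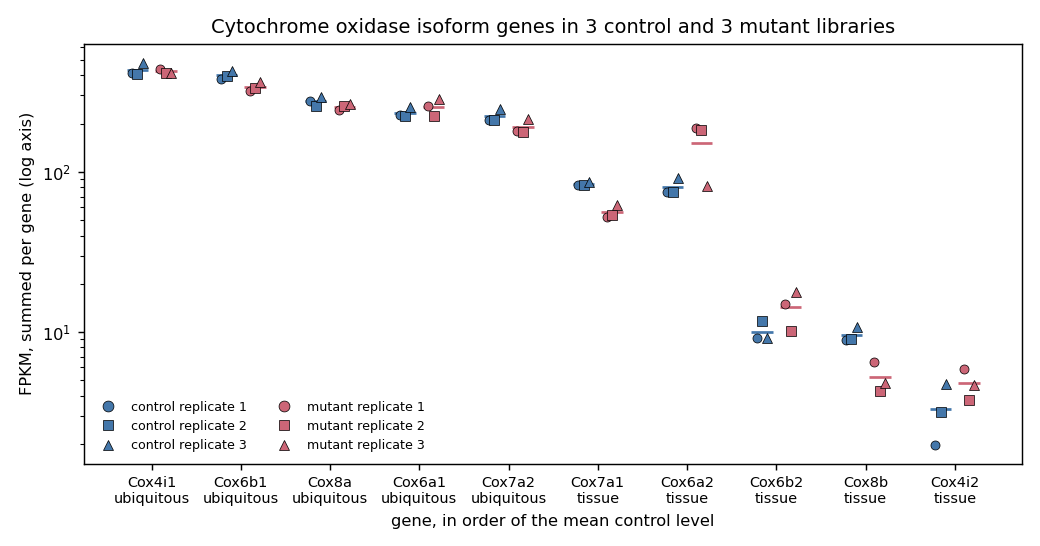
FPKM per gene (log axis) of the 10 isoform genes, in order of their mean control level; each symbol is 1 library (circle, square and triangle for replicates 1, 2 and 3; blue for control, red for mutant) and each line a group mean of 3. Cox7a1 and Cox6a2 start together at 84.0 and 80.3 FPKM in controls and end at 55.9 and 151 FPKM in mutants, where the triangle of Cox6a2 stays at 82.0 FPKM.

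Among the 3 muscle forms, Cox7a1 and Cox8b were lower in the mutant libraries and Cox6a2 was higher in 2 of the 3. COX6A sits at the interface of the complex IV dimer, and its muscle form Cox6a2 was read at 74.6, 74.9 and 91.2 FPKM in controls and at 189, 182 and 82.0 FPKM in mutants. Mutant replicates 1 and 2 lay far above every control, whereas replicate 3, the library with Mrps5 at the control level, lay within the control range. The log2 difference was 0.81 (SE 0.29) over all libraries and 1.20 (SE 0.12) without mutant replicate 3.

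The ubiquitous partner Cox6a1 stood at 226, 224 and 253 FPKM in controls and 257, 222 and 284 FPKM in mutants, a log2 difference of 0.11 (SE 0.11), or 0.03 (SE 0.12) without mutant replicate 3, with overlapping groups. Cox6a2 accounted for 24.8%, 25.1% and 26.5% of the pair in controls and for 42.4%, 45.0% and 22.4% in mutants. The share of the muscle form was thus nearly constant among controls and divided the mutants into 2 libraries well above and 1 just below them. The log2 ratio of Cox6a2 to Cox6a1 was -1.55 ± 0.07 in controls and -0.84 ± 0.83 in mutants (SD, n = 3 each). The difference of 0.71 rests on the libraries included, being 1.18 without mutant replicate 3, 0.43 without replicate 2 and 0.51 without replicate 1.

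COX7A is a small membrane-spanning subunit of complex IV. Its muscle form Cox7a1 was read at 83.1, 82.8 and 86.0 FPKM in controls and at 52.3, 53.4 and 62.0 FPKM in mutants. All 3 mutant libraries lay below all 3 controls, mutant replicate 3 included. The ratio of the group means was 0.67 and the log2 difference -0.58 (SE 0.09), or -0.66 (SE 0.09) without mutant replicate 3.

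Cox7a2, the ubiquitous partner, stood at 212, 210.4 and 247 FPKM in controls and 179, 178 and 215 FPKM in mutants, a log2 difference of -0.23 (SE 0.11), or -0.32 (SE 0.11) without mutant replicate 3. That library overlapped the controls here, and the other 2 mutant libraries lay below them. Both forms were thus lower on average, Cox7a1 by more. The muscle form made up 28.2%, 28.2% and 25.8% of the pair in controls against 22.6%, 23.1% and 22.4% in mutants, without overlap, and the log2 ratio differed by -0.36 between the groups (-1.41 ± 0.10 against -1.77 ± 0.03, SD, n = 3 each).

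COX8 is the smallest of these subunits, and its muscle form Cox8b is also known from brown fat. Cox8b was read at 8.85, 9.06 and 10.8 FPKM in controls and at 6.51, 4.29 and 4.79 FPKM in mutants. The groups did not overlap, and mutant replicates 2 and 3 were the lowest libraries. The ratio of the group means was 0.54 and the log2 difference -0.78 (SE 0.14).

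The partner Cox8a stood at 277, 257 and 293 FPKM in controls and 245, 256 and 264 FPKM in mutants, a log2 difference of -0.11 (SE 0.09), or -0.14 (SE 0.11) without mutant replicate 3. That library overlapped the controls, and the other 2 mutant libraries lay below them. Cox8b made up 3.10%, 3.41% and 3.55% of the pair in controls and 2.59%, 1.65% and 1.78% in mutants. Every mutant share lay below every control share. The log2 ratio differed by -0.77 (-4.84 ± 0.10 against -5.61 ± 0.35, SD, n = 3 each).

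**Figure D2:**
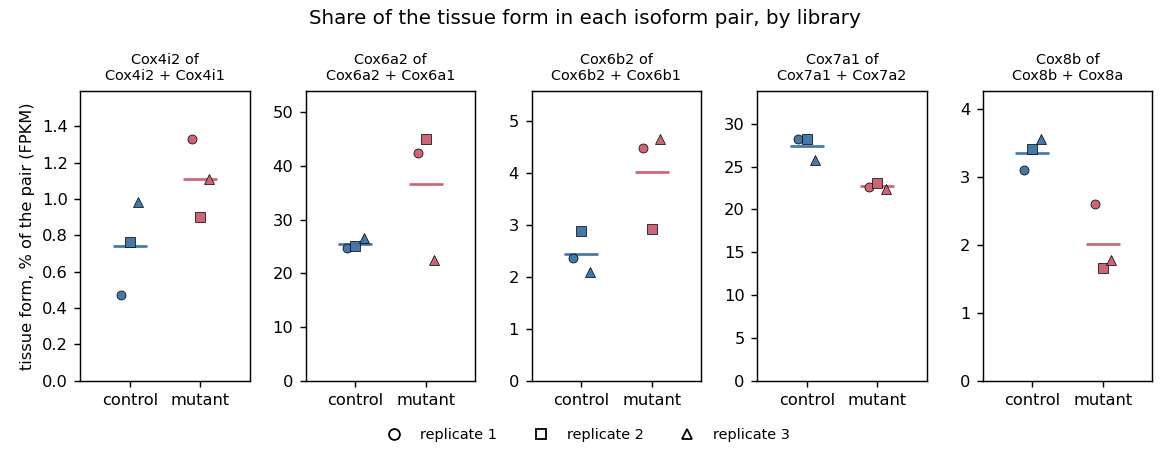
Share of the tissue form in the summed FPKM of its pair (%), with 1 panel per pair, axes from 0, each symbol 1 library (circle, square and triangle for replicates 1, 2 and 3) and each line a group mean of 3. The Cox7a1 and Cox8b shares of all mutant libraries lie below all controls, the Cox6b2 shares above them by a margin of 2.92% against 2.88% at the nearest, and for Cox6a2 the mutant libraries split into 42.4%, 45.0% and 22.4%.

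The muscle forms were also set against each other. The ratio of Cox6a2 to Cox7a1, computed after these values were seen, puts a form that was higher over one that was lower, so its direction follows from that choice. It was 0.90, 0.91 and 1.06 in controls and 3.62, 3.40 and 1.32 in mutants. It was above the control range in all 3 mutant libraries, with replicate 3 closest to it. The ratio of Cox6a2 to Cox8b was built the same way, with 8.43, 8.27 and 8.46 in controls and 29.06, 42.29 and 17.12 in mutants, again with no overlap. The ratio of Cox7a1 to Cox8b, the 2 forms that were lower, was 9.39, 9.13 and 7.97 in controls and 8.04, 12.44 and 12.94 in mutants, with overlap. A ratio of 2 genes within a library does not depend on how the libraries were scaled.

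In the 2 remaining pairs the tissue form is not a muscle form. COX6B, like COX6A, lies at the dimer interface, on the side of the intermembrane space. Its ubiquitous form Cox6b1 stood at 382, 394 and 427 FPKM in controls and at 320.3, 336 and 362 FPKM in mutants. The groups did not overlap, and the log2 difference was -0.24 (SE 0.10).

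Cox6b2, the testis form, was read at 9.22, 11.7 and 9.10 FPKM in controls and 15.0, 10.1 and 17.7 FPKM in mutants. Mutant replicates 1 and 3 were above the controls and replicate 2 was among them, and the log2 difference was 0.45 (SE 0.19), or 0.28 (SE 0.17) without mutant replicate 3. Its share of the pair was 2.36%, 2.88% and 2.09% in controls and 4.48%, 2.92% and 4.65% in mutants, and the log2 ratio differed by 0.72 (-5.32 ± 0.24 against -4.60 ± 0.39, SD, n = 3 each). The 7 Cox6b2 transcripts listed were all low, the most abundant of them holding 30.5% of the gene.

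Mutant replicates 1 and 3 were also the libraries with the most erythroid RNA. The 14 of 17 erythroid markers found, none of them at 0 throughout, made up 12.2%, 13.3% and 12.0% of all FPKM in controls and 23.5%, 10.8% and 22.0% in mutants. With the erythroid share as a covariate, which was added after the data were seen, the Cox6b2 log2 difference was 0.14, that of Cox6a1 was -0.01, and those of Cox6a2, Cox7a1 and Cox8b were 1.04, -0.61 and -0.93. The part of erythroid RNA in the Cox6b2 values was not tested further.

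COX4 binds adenine nucleotides and is the largest of the nuclear-encoded subunits. Cox4i1 stood at 417, 408 and 478 FPKM in controls and 439, 416 and 417 FPKM in mutants, a log2 difference of -0.03 (SE 0.10) with overlapping groups. Cox4i2 was read at 1.98, 3.14 and 4.75 FPKM in controls and 5.91, 3.77 and 4.67 FPKM in mutants, also with overlap, and differed by 0.47 (SE 0.24) on the log2 scale, or by 0.23 without control replicate 1. It made up between 0.472% and 0.985% of the pair in controls and between 0.899% and 1.33% in mutants. Cox4i2 is known from mural cells as well, and the summed mural markers stood at 51.5 to 58.4 FPKM in controls and 42.3 to 49.6 FPKM in mutants.

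Of the 10 genes, 4 had a log2 difference above 0 and 6 below, with a median of -0.07, beside a median of -0.02 over all genes tested. By limma, 0 of the 10 passed an adjusted p under 0.05, against 0.0830% of all genes tested (11 genes). Without mutant replicate 3, the library whose Mrps5 level goes against its label, 2 of the 10 passed it (Cox6a2 and Cox7a1), against 2.04% of all genes (270 genes). None passed it in any of the other 13 alternative fits, among them the one without mutant replicate 2, which called 121 genes. At an unadjusted p under 0.05, 2 were higher (Cox6a2 and Cox6b2), against 5.57% of all genes, and 3 were lower (Cox7a1, Cox8b and Cox6b1), against 9.43% of all genes. No member had all mutant libraries above all controls, as 7.74% of genes did, and 3 had all below, as 13.0% of genes did. Because the members were chosen from this comparison, nothing is read from these counts. The summed tissue forms came to 178, 182 and 202 FPKM in controls and 269, 253 and 171 FPKM in mutants, and the summed ubiquitous forms to 1514, 1494 and 1698 against 1440.5, 1407 and 1542 FPKM.

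The isoform levels were set beside the amount of cardiomyocyte RNA. All 16 cardiomyocyte markers were lower in mutants on average, beside 55.0% of all genes tested, and 11 of them had every mutant library below every control, beside 13.0% of all genes, and their sum was 14495, 13223 and 15864 FPKM in controls and 10668, 11716 and 12749 FPKM in mutants. The summed ranges did not overlap, and none of the 16 was at 0 throughout. Tnnt2, the troponin T gene whose promoter drives Cre, stood at 1044, 948 and 983 FPKM against 617, 667 and 683 FPKM, and Tnni3, troponin I, at 329, 323 and 349.9 against 275, 303 and 291 FPKM. In hearts sequenced in bulk, fewer cardiomyocytes and less RNA per cardiomyocyte cannot be told apart.

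**Figure D3:**
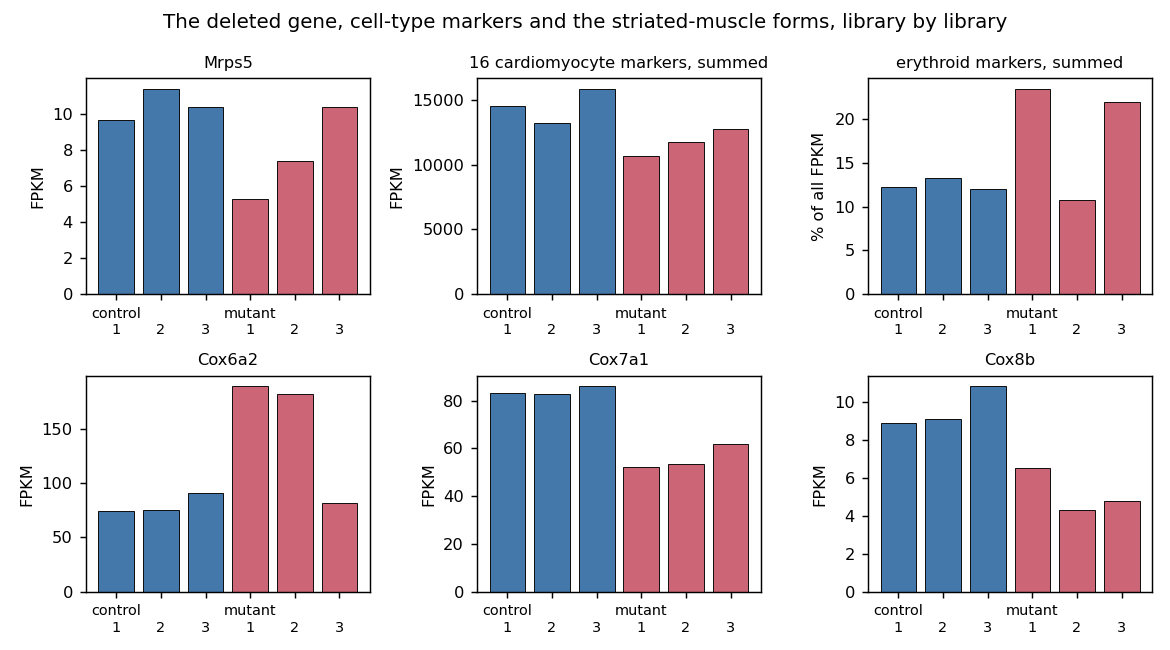
Bars, from 0, give each of the 6 libraries (blue for control replicates 1 to 3, red for mutant replicates 1 to 3): FPKM of Mrps5, summed FPKM of 16 cardiomyocyte markers, erythroid markers as % of all FPKM, and FPKM of Cox6a2, Cox7a1 and Cox8b. Mutant replicate 3 has control levels of Mrps5 (10.4 FPKM) and Cox6a2 (82.0 FPKM) but low Cox7a1 (62.0 FPKM) and Cox8b (4.79 FPKM), and mutant replicate 2 has high Cox6a2 (182 FPKM) with an erythroid share of 10.8%.

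When each member was expressed relative to the mean log2 level of those 16 markers in its own library, an alternative added after the data were seen, the muscle forms kept their direction. Cox7a1 was still below the controls in every mutant library, with a difference of -0.26 (-2.72 ± 0.10 against -2.98 ± 0.04, SD, n = 3 each). Cox8b differed by -0.46 but its groups now overlapped, mutant replicate 1 lying among the controls. Cox6a2 differed by 1.13 and lay above the controls in all 3 mutant libraries, replicate 3 by the least, at -2.57 against -2.69 in the nearest control. The ubiquitous forms lay between 0.08 (Cox6b1) and 0.43 (Cox6a1) on this scale. The sign of Cox4i1, Cox6b1, Cox7a2 and Cox8a turned with the reference, and that of Cox6a1 did not. Cox4i1, Cox6a1 and Cox8a were then above the controls in every mutant library, and Cox6b1 and Cox7a2 overlapped with them.

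**Figure D4:**
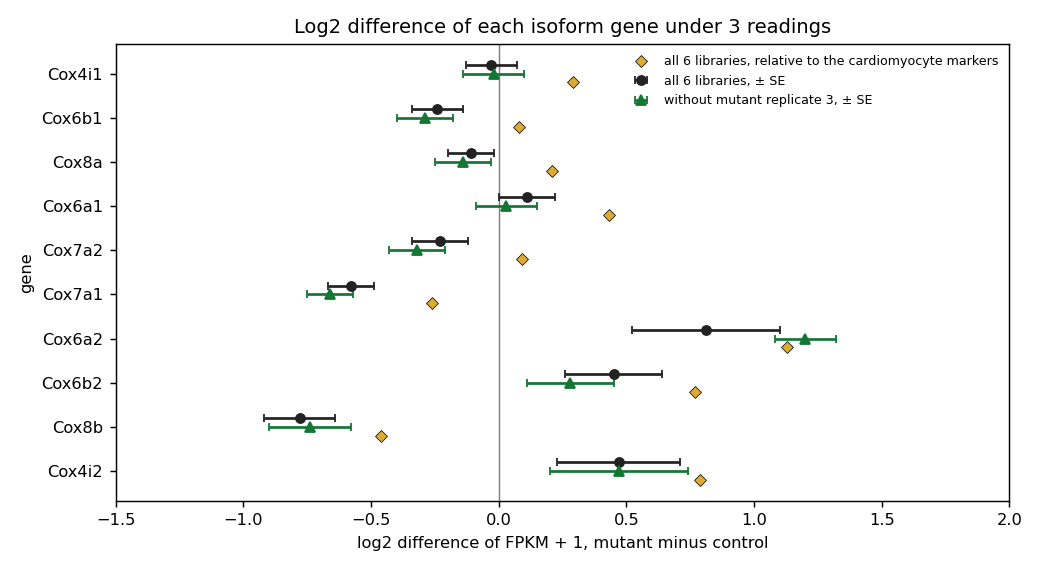
Log2 difference of FPKM + 1 (mutant minus control) for each gene over all 6 libraries (black circles, ± SE), without mutant replicate 3 (green triangles, ± SE) and relative to the 16 cardiomyocyte markers (yellow diamonds). Cox7a1 and Cox8b are below 0 and Cox6a2, Cox6b2 and Cox4i2 above 0 in all 3 readings, while Cox6b1, Cox7a2, Cox8a and Cox4i1 change side with the cardiomyocyte reference.

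The other genes of complex IV give the setting of these pairs. Of 39 other subunit and assembly genes listed, 37 were tested, of which 12 had a log2 difference above 0 and 25 (67.6%) below, with a median of -0.10, where 55.0% of all genes tested were below 0. At an unadjusted p under 0.05, 2 of the 37 were higher, beside 5.57% of all genes, and 5 were lower, beside 9.43% of all genes, and 0 passed the adjusted threshold by limma. Of the 37, 10 had every mutant library below every control, beside 13.0% of all genes. Another 3 had every mutant library above every control, beside 7.74% of all genes. The mitochondrially encoded core subunits had a median log2 difference of -0.50. mt-Co1 stood at 10253, 10214 and 10330.3 FPKM in controls and 8146, 9038 and 7895 FPKM in mutants, mt-Co2 at 7989.6, 6179 and 6928 against 5187, 5608 and 4181 FPKM, and mt-Co3 at 5918, 4447 and 5659.8 against 3724, 3563 and 3467 FPKM. All 3 had every mutant library below every control, as 13.0% of all genes did, with log2 differences of -0.30, -0.50 and -0.56.

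For the 6 nuclear subunits that have a single common form, the log2 differences were 0.02 for Cox5a, -0.12 for Cox5b, -0.03 for Cox6c, -0.26 for Cox7b, -0.03 for Cox7c and -0.11 for Ndufa4. Cox5b and Cox7b had all mutant libraries below the controls, as 13.0% of all genes did. Each of these values is closer to 0 than those of the muscle forms Cox6a2, Cox7a1 and Cox8b. Of the 26 assembly genes, 10 were above 0 and 16 below, and the 3 with the smallest p were Lrpprc (0.29), which stabilises mitochondrial mRNA, and the copper-related assembly factors Cmc1 (-0.30) and Cmc2 (-0.23). The 2 remaining low tissue forms Cox7b2 and Cox8c did not pass the filter, with Cox8c listed at 0 in every library.

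Cox7a1 and Cox8b were set beside other proteins that have a form abundant in heart or striated muscle and a form typical of other tissues. In 7 of 8 such pairs the log2 ratio of the first to the second was lower in every mutant library than in every control. The pairs were chosen with earlier results known. Of single genes, 13.0% had every mutant library below every control, and no such share was computed for ratios. For Slc25a4 and Slc25a5 the nearest mutant and control both rounded to 0.07. All 16 cardiomyocyte markers were lower on average, and the part of that in these ratios was not tested. In 1 pair, the lactate dehydrogenase subunits Ldhb (the heart form) and Ldha (the form of skeletal muscle and many other tissues), the groups overlapped. In none was the ratio higher. The largest difference was for the glycogen phosphorylases Pygm and Pygl, but it rests on Pygm being listed at 0 in mutant replicate 2, beside 12.1 and 17.7 FPKM in the other mutants and 18.9, 17.3 and 22.4 FPKM in controls. Without that library the log2 ratio differed by -0.36. The mitochondrial creatine kinases Ckmt2 and Ckmt1 followed with a difference of -2.05, at levels of at most 1.82 and 1.36 FPKM. It rests largely on mutant replicate 2, the library with Ckmt1 at 1.36 FPKM, and was -0.94 without it. The creatine kinases Ckm and Ckb differed by -0.78, with Ckm at 1.35, 1.07 and 2.09 FPKM in controls and 0.525, 0.506 and 0.928 FPKM in mutants. The phosphoglycerate mutases Pgam2 and Pgam1 differed by -0.49, with Pgam2 at 149.6, 131 and 167 FPKM against 82.6, 91.8 and 134 FPKM. The Cox7a and Cox8 ratios lay on the same side as these pairs. The Cox6a ratio of mutant replicates 1 and 2 lay on the other side. That of mutant replicate 3 lay on the same side, at -1.79 against -1.60 in the nearest control.

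The promoters of the 2 muscle forms that had every mutant library below the controls are shown. Cox6b1, not a muscle form, also had every mutant library below the controls and is not shown. RefSeq's promoter table (build GRCm38.p6) holds 7 of the 10 genes, and Cox4i1, Cox4i2 and Cox6a2 were not analysed there. Each sequence is the 250 bases before RefSeq's start of the gene, 5′ to 3′ on the gene's strand, with capitals at matches on either strand to the E-box CANNTG and to the GATA motif AGATAA.
Cox7a1, chr7:30183921-30184170, plus strand: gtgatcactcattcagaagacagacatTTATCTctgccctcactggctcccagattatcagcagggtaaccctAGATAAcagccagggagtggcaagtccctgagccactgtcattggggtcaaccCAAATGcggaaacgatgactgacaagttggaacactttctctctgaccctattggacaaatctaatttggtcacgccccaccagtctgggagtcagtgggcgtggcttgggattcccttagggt
Cox8b, chr7:140900447-140900696, minus strand: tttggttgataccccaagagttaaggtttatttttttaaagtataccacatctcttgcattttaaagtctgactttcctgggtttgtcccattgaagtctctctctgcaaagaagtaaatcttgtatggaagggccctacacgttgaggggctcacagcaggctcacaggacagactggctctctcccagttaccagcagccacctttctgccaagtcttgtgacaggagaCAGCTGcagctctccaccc
The Cox7a1 window holds 1 E-box and 2 GATA matches, none overlapping, and the Cox8b window 1 E-box and 0 GATA matches. Of 27025 promoters of this length, 66.0% hold an E-box and 10.3% a GATA match. Neither window holds the MEF2 motif, which 3.01% of promoters hold, or the C/EBP-ATF element TGATGCAA, which 0.818% hold. The windows of the ubiquitous partners Cox7a2 and Cox8a, not shown, also hold 1 E-box each, and that of Cox6b1 holds 2. These matches describe the letters in the windows and say nothing of binding.

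The sums of 4 other marker lists overlapped between the groups, and the mural sums, given above, did not, every mutant library being lower. Endothelial markers came to 233 to 256 FPKM in controls and 219 to 261 FPKM in mutants, epicardial to 155 to 175 and 159 to 225, mesenchymal to 389 to 398 and 350.4 to 474, and macrophage to 9.15 to 10.6 and 6.99 to 12.7. Among the leading markers, Hba-a1 stood between 5384 and 6493 FPKM in controls and between 4919 and 12194 FPKM in mutants and Hba-a2 between 3947 and 4802 against 3188 and 7800.5 FPKM, while Pecam1, Cdh5, Wt1, Tbx18, Postn, Col1a1, Pdgfrb, Csf1r and Cd68 had log2 differences between -0.13 and 0.10, and Rgs5 one of -0.67, each with overlapping groups. These leading genes do not stand for their whole lists. Of the 14 erythroid markers tested, 13 were above 0, with a median of 0.68, and 7 were higher at an unadjusted p under 0.05. Of the 8 mesenchymal markers 6 were above 0, and of the 4 macrophage markers tested 1 was, and none of either passed that threshold. Of the 7 epicardial markers, 5 were above 0, 2 of them at an unadjusted p under 0.05 (5.57% of all genes), and 2 had every mutant library above every control (7.74% of all genes). Of the 9 endothelial markers, 4 were above 0 and 5 below, 1 was higher at an unadjusted p under 0.05, 1 had every mutant library above every control and 2 had every one below (13.0% of all genes). Of the 6 mural markers tested, 3 were above 0 and 3 below, and 3 were lower at an unadjusted p under 0.05 (9.43% of all genes). In 1 of the 6, every mutant library lay below every control (13.0% of all genes). The part of these cell types in the isoform values was not tested.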

How the data were processed

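RNA-seq was made from 3 control and 3 mutant pools of embryonic mouse hearts. The authors deposited 1 table of FPKM values per transcript and library. Per the labels, ribosomal RNA was removed and libraries were strand-specific. The study's methods describe poly-T selection of mRNA, in a section on adult hearts. The submitters' processing notes name Bowtie2 2.2.8, HISAT2, StringTie 1.3.1, Cuffdiff 2.1.1 and mm9, with no role or order, and the annotation release is not given in the sources used here. Of 57676 Ensembl transcript rows, 55783 were found in GENCODE M21 (GRCm38), from which sequences and positions were taken.

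Transcript FPKM were summed per gene. Genes with at least 1 FPKM in at least 3 of 6 libraries (13260) were fitted as log2(FPKM + 1) with limma 3.58.1 (trended variance) in R 4.3.3, with Benjamini-Hochberg adjustment at 0.05, after the steps were tested on simulated data. A difference on this scale understates the change of low genes. Isoform ratios used a pseudocount of 0.1. Read counts are not in the table, so absolute depth is unknown; the steps between low values put relative depth between 1.0 and 1.61, and summed FPKM were 454692 to 515952. An exact permutation test of 3 against 3 libraries cannot reach 0.05, and p-values measure the spread between these pools.

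The members and gene lists were chosen with earlier results of these data known. Named besides them were Mrps5, mt-Co1 to mt-Co3, every single-form subunit, the 3 assembly genes of smallest p, up to 4 other isoform pairs without overlap with the largest difference, and the first 2 genes of each marker list. Cell types were followed with lists of 16 cardiomyocyte, 17 erythroid, 9 endothelial, 7 epicardial, 8 mesenchymal, 7 mural and 6 macrophage markers. Isoforms were aligned on coding sequence (Biopython 1.88), since proteins were not used here. Alternatives changed the pseudocount, filter, transcript summary, scaling, replicate block, erythroid covariate, cardiomyocyte reference and the libraries included.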

Additional observations from a re-analysis of the deposited data

How the results depend on the processing

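The log2 differences of Cox6a2 (0.61 to 1.20), Cox6b2 (0.14 to 0.77), Cox4i2 (0.23 to 0.79), Cox7a1 (-0.66 to -0.26) and Cox8b (-0.93 to -0.46) kept their sign under every alternative run, as did the 5 isoform ratios. The reference to cardiomyocyte markers reversed Cox6b1, from -0.24 to 0.08, and also turned the sign of Cox7a2 (0.09), Cox8a (0.21) and Cox4i1 (0.29), by construction, as the markers themselves differed by -0.32. Cox6a1 turned to -0.01 with the erythroid covariate. Cox4i2 has no value under the filter at a mean of 5 FPKM. Genes called at an adjusted p under 0.05 numbered 11, and 6 with no filter, 4 with the most abundant transcript alone, 7 with the erythroid covariate, and 5 to 270 when 1 library was left out: 5 to 7 without any 1 of the controls or mutant replicate 1, 121 without mutant replicate 2 and 270 without mutant replicate 3. Genes at an unadjusted p under 0.05 numbered 1990, or 1314 with the filter at a mean of 5 FPKM and 1216 (without control replicate 1) to 2167 with 1 library left out. Genes without overlap numbered 2754, or 1802 with that filter and 3583 to 4728 with 1 library left out, above 1.5 times without control replicate 2 (4163), mutant replicate 2 (4728) or mutant replicate 3 (4316), as fewer libraries have to be apart. Other complex IV genes at an unadjusted p under 0.05 numbered 7, or 3 to 8 with 1 library left out, 3 being without control replicate 3. The causes were not tested, beyond the number of genes and libraries in each fit. The study calls the controls littermates, but the labels do not tie replicate numbers to litters. The replicate numbers were not taken as pairing the libraries: the deviations of same-numbered libraries correlated at 0.217, 0.11 and 0.09, although every library correlated best with its own number, as a hint from the data. The replicate block gave 4 genes called in place of 11 and changed no log2 difference. With 3 libraries a group and unknown depth, differences of low genes such as Cox4i2 cannot be resolved from the spread.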
